A study of Homo sapiens with 10 samples.

Results

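The cell line sg2 carries 1 of 3 CRISPR interference guides against RNASE1 in LS180, an established human line from a colorectal cancer. It was represented by 2 libraries, lettered A and B, of the 10 libraries in the series. It was set against the 4 libraries of the control lines NTC1 and NTC2, read here as lines with non-targeting guides, also lettered A and B. All 5 lines derive from LS180 and were grown in DMEM with serum and no drug. The labels name no clone, culture or passage, and give neither the repressor nor its promoter. Whether A and B are separate cultures is not stated, so p-values measure only the spread between these libraries, which may be technical. Each line is 1 derivation of cells, and a difference between sg2 and the controls cannot be told apart from a difference between separately made lines except through the spread between NTC1 and NTC2.

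In CRISPR interference a catalytically dead Cas9, usually fused to a repressor domain, is held at a promoter by its guide RNA and lowers transcription without cutting the DNA. RNASE1 encodes the pancreatic-type ribonuclease, a small secreted endonuclease that cleaves RNA after pyrimidines and is made by many epithelia and by endothelium. Inside cells, stray molecules of the RNase A superfamily are bound and silenced by the ribonuclease inhibitor, the product of RNH1. The title of the series places the enzyme within the cell, where it is proposed to hold down gene expression. For a guide line with little RNASE1 left, the comparison therefore asks which transcripts differ from control lines across the genome.

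The stretch upstream of a start site of RNASE1 is shown because repression by the guides acts at the promoter. It lies inside the span given below for the gene, so it is not upstream of the whole gene. The 250 bases before a RefSeq start site of RNASE1 (GRCh38.p14, chr14:20802845-20803094, minus strand) read as follows, with the TATAA letters of a TATA box in capitals.

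RNASE1: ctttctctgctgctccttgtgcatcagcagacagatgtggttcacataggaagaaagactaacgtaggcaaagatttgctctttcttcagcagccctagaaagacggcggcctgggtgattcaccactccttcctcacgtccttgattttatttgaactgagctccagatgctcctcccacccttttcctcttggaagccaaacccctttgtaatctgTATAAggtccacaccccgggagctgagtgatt

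The motif TATAA, searched on both strands, begins 32 bases before the start site. Among 35116 RefSeq windows of 300 bases (250 before and 50 after a start), 20.4% hold it on either strand. A second RefSeq start of the gene has its window at chr14:20802315-20802614, where these letters do not occur.

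Libraries held 39026605 to 45050991 expected counts, with 45050991 in sg2 A and 42234733 in sg2 B. Between 15418 and 15802 genes per library had at least 10 counts. The share of counts was 7.25% to 8.21% for cytosolic ribosomal proteins and 1.17% to 1.54% for the mitochondrial genome, and sg2 lay inside both ranges. The summed markers of colorectal epithelium in sg2 were near those of the controls, which does not test the identity of the line. All 12 markers of colorectal epithelium passed the filter on low counts, and their summed level was 8508 and 6835 CPM in sg2 A and B against 6825 to 8491 CPM in the controls. CPM is the depth-scaled count of edgeR, after TMM scaling. Summed markers of fibroblasts (8.82 and 9.22 CPM), endothelium (4.29 and 4.62 CPM) and an embryonic kidney line (4.38 and 4.27 CPM) were low, against 8.57 to 9.91, 4.87 to 6.12 and 4.40 to 4.87 CPM in the controls. Leukocyte markers summed to 45.4 and 36.5 CPM against 43.4 to 47.1 CPM in the controls, and most of this was LYZ, a lysozyme that gut epithelium also makes.

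RNASE1 (ENSG00000129538, GRCh38 chr14:20801228-20803278, minus strand) was reduced in both sg2 libraries. It had 688 and 1086 counts in NTC1 A and B, 811 and 965 in NTC2 A and B, and 150 and 160 in sg2 A and B. Scaled for depth this was 16.3, 23.7, 19.3 and 22.9 CPM in the 4 controls and 3.35 and 3.75 CPM in sg2. No sg2 value came near the lowest control, NTC1 A. The means were 20.5 ± 3.44 CPM (SD, n = 4) and 3.55 ± 0.285 CPM (SD, n = 2). RNASE1 fell by 2.52 on the log2 scale (SE 0.10; edgeR quasi-likelihood test with Benjamini-Hochberg adjustment over 16025 genes and the letter as a block, adjusted p = 5.34e-08), which left 17.4% of the control level (95% interval 14.9% to 20.2%). Against NTC1 alone the log2 fold change was -2.48 (SE 0.12) and against NTC2 alone -2.56 (SE 0.12), both from a fit of all 10 libraries. With A libraries alone, 1 against 2, it was -2.41 and the adjusted p was 0.0642.

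**Figure D1:**
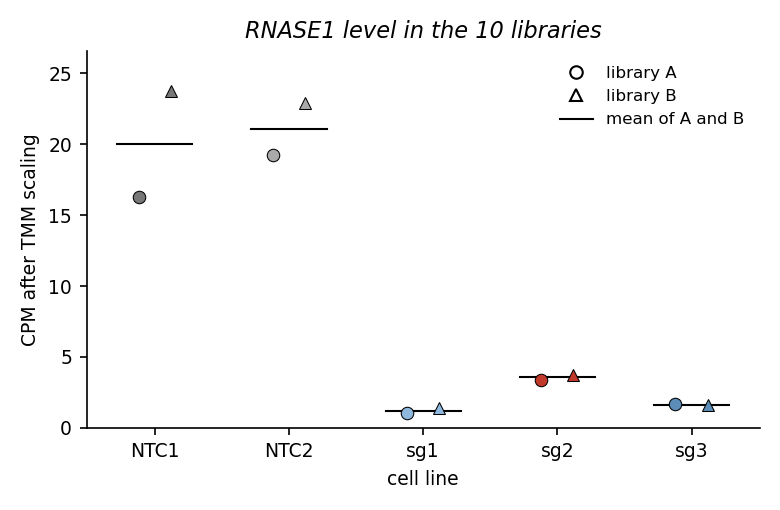
RNASE1 level in CPM after TMM scaling (y axis) in the 5 lines (x axis), with library A as a circle, library B as a triangle and the line mean as a bar. The libraries of sg2 sit at 3.35 and 3.75 CPM, between the controls at 16.3 to 23.7 CPM and the libraries of sg1 and sg3 at 1.02 to 1.66 CPM.

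The residual RNASE1 in sg2 was the highest of the 3 guide lines. The line was picked for description as the weakest of them, so these values are given without a test. RNASE1 stood at 1.02 and 1.37 CPM in sg1 A and B, and at 1.66 and 1.58 CPM in sg3 A and B. In the 10-library fit sg2 kept 17.4% of the control mean, sg1 5.86% (95% interval 4.79% to 7.16%) and sg3 7.94% (6.57% to 9.59%). RNASE1 was 2.97-fold higher in sg2 than in sg1 and 2.19-fold higher than in sg3.

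Other members of the family and the neighbourhood of the gene showed no call. Of 14 genes in the RNase A superfamily list, which includes the inhibitor, 6 passed the filter on low counts and 7 had 0 counts in all 6 libraries. RNH1, the inhibitor, stood at 161 and 160 CPM in sg2 against 150 to 176 CPM in the controls, a log2 fold change of 0.00 (SE 0.05). ANG, which encodes angiogenin, stood at 3.35 and 4.51 CPM against 3.79 to 5.13 CPM, and its fold change of -0.19 (SE 0.14) was within the error. RNASE4, which shares its promoter with ANG, stood at 9.14 and 8.85 CPM against 8.95 to 11.5 CPM (-0.17, SE 0.10). Within 100 kb of RNASE1, 1 of 11 other annotated genes was tested, RNASE6, at 0.156 and 0.235 CPM against 0.197 to 0.261 CPM (-0.25, SE 0.51). Within 500 kb 21 of 72 were tested, 0 were called by edgeR (0.0499% of all genes tested) and 0 by DESeq2 (0.0998%), and 1 had an unadjusted edgeR p under 0.05 (5.69%), the telomerase-associated gene TEP1 (0.16, SE 0.06). At 1 CPM or more the 19 genes of that window ran from -0.19 (ANG) to 0.51 (AL163636.2).

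Across the transcriptome few genes differed. Of 16025 genes tested 8 were called at an adjusted p under 0.05 (0.0499%), 4 higher in sg2 (0.025%) and 4 lower (0.025%), RNASE1 among the latter. DESeq2 called 16 (0.0998%), 11 higher (0.0686%) and 5 lower (0.0312%), and these included the 8. An unadjusted edgeR p under 0.05 was reached by 912 genes (5.69%), 508 higher and 404 lower, where uniform p-values would give 801.25. For 11942 of the 13031 genes at 1 CPM or more (91.6%), changes beyond 1.5-fold up or down were outside the 95% interval.

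OLFM4, which encodes a secreted glycoprotein that marks crypt base cells of the intestine, fell by 0.56 on the log2 scale (SE 0.07, edgeR adjusted p = 0.0176). Its level was 245 and 263 CPM in the A libraries of NTC1 and NTC2 and 610 and 676 CPM in their B libraries. In sg2 it was 196 CPM in A and 382 CPM in B. Across letters the groups overlapped, and within each letter sg2 was below both controls. Over all lines OLFM4 differed by 1.06 (log2, B minus A), so its call rests on the block for letter. It was at 185 and 253 CPM in sg1 and at 221 and 499 CPM in sg3. The call ended without the block (-0.63, adjusted p = 1.00), in the 10-library fit (-0.57, adjusted p = 0.266), with A libraries alone (-0.38, adjusted p = 0.993), without NTC1 B (-0.57, adjusted p = 0.0974) and without sg2 B (-0.38, adjusted p = 0.109), and held in 12 of 17 alternatives.

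PRSS2, which encodes the digestive protease precursor anionic trypsinogen, fell by 0.46 (SE 0.06, edgeR adjusted p = 0.0194). The 4 controls held 22.2, 22.8, 21.3 and 23.7 CPM and sg2 held 16.7 and 16.0 CPM, with no overlap between the groups. The other guide lines lay between, at 16.7 and 20.4 CPM in sg1 and 17.5 and 20.0 CPM in sg3. PRSS2 is nearly identical to other trypsinogen genes, so its reads may be divided among them. PRSS1 had a log2 fold change of -0.56 (SE 0.12, adjusted p = 0.268) and PRSS3 one of -0.08 (SE 0.05). TRBC2, next to PRSS2 in the T cell receptor beta locus, had -0.39 (SE 0.10, adjusted p = 0.448). The call of PRSS2 ended without NTC1 B (-0.46, adjusted p = 0.108), NTC2 B (-0.44, adjusted p = 0.104) or sg2 B (-0.38, adjusted p = 0.323), and held in 11 of 17 alternatives with adjusted p up to 0.995.

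EVPL and SLC28A2 rose. EVPL encodes envoplakin, a plakin of desmosomes and the cornified envelope, and stood at 40.4 and 38.0 CPM in the A controls and 50.6 and 47.7 CPM in the B controls. In sg2 it stood at 50.1 and 62.8 CPM, above both controls of the same letter, a rise of 0.35 (SE 0.05, edgeR adjusted p = 0.0194). SLC28A2 encodes a sodium-coupled transporter of purine nucleosides, and stood at 18.8 and 19.5 CPM in the A controls and 15.9 and 14.9 CPM in the B controls. In sg2 it stood at 25.6 and 21.0 CPM, above all 4 controls, a rise of 0.43 (SE 0.06, edgeR adjusted p = 0.0194). Both calls ended without NTC1 B (EVPL 0.37, adjusted p = 0.0694; SLC28A2 0.45, adjusted p = 0.0830), NTC2 B (0.33 and 0.41, adjusted p = 0.104 for both), sg2 A (0.35, adjusted p = 0.0968, and 0.45, adjusted p = 0.123) or sg2 B (0.35, adjusted p = 0.142, and 0.41, adjusted p = 0.181). Each held in 10 of 17 alternatives, with adjusted p up to 1.00 without the block.

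Of the 8 calls 3, REG1A, PALM and AC010487.3, rest on few counts. Each passed the filter on low counts only through the libraries of the group in which it is high, and had to differ for that reason, so its adjusted p is given as a description and supports nothing. PALM and AC010487.3 fall outside the naming rule and are named after their values were seen. REG1A, which encodes a secreted lectin of the regenerating family, had 35, 55, 70 and 62 counts in NTC1 A, NTC1 B, NTC2 A and NTC2 B and 5 and 0 counts in sg2 A and B. It was 22.4-fold lower by its summed counts (95% counting interval 9.47 to 69.8; edgeR adjusted p = 0.0232). The other guide lines had 2 and 8 counts in sg1 and 10 and 44 in sg3, so sg3 B lay within the range of the controls. The call ended without NTC1 B (adjusted p = 0.108), NTC2 A (0.0742), NTC2 B (0.104) or sg2 B (0.0641), with fitted values from -4.46 to -3.45. It held in 9 of 16 alternatives, with adjusted p up to 0.995.

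PALM, which encodes the membrane-anchored phosphoprotein paralemmin, was read mainly in sg2. It had 0, 1, 1 and 1 counts in the controls, 2 and 0 in sg1, 1 and 1 in sg3, and 36 and 32 in sg2. The summed counts of sg2 were 44.9-fold those of the controls (95% counting interval 14.7 to 223; edgeR adjusted p = 0.00742). Its level there, 0.804 and 0.751 CPM, was still low, and sg2 against sg1 and against sg3 missed the threshold in the 10-library fit (adjusted p = 0.135 and 0.132). The call ended with either sg2 library left out, at adjusted p = 0.107 without A (fitted 4.88) and 0.0701 without B (fitted 5.77), and held in 13 of 16 alternatives with adjusted p up to 0.839. The genes beside it on chromosome 19, FSTL3 and MISP, had log2 fold changes of -0.05 and 0.05.

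AC010487.3, an annotated gene on chromosome 19, had 0 counts in the 4 controls and 22 and 26 in sg2. With a floor of 3 counts over the control group it was at least 31.7-fold higher (edgeR adjusted p = 0.0332). On its strand it overlaps ZNF816 (log2 fold change 0.01) and ZNF321P (-0.07), and the read-through gene ZNF816-ZNF321P, at 0 counts in the controls and 18 and 15 in sg2 (adjusted p = 0.0892), may share its reads. The gene was not particular to sg2, with 58 and 0 counts in sg1 and 31 and 9 in sg3. Its call ended in each of the 6 fits without 1 library except the one without NTC1 A, at adjusted p from 0.0569 (without NTC2 A) to 0.323 (without sg2 B), and held in 8 of 16 alternatives.

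**Figure D2:**
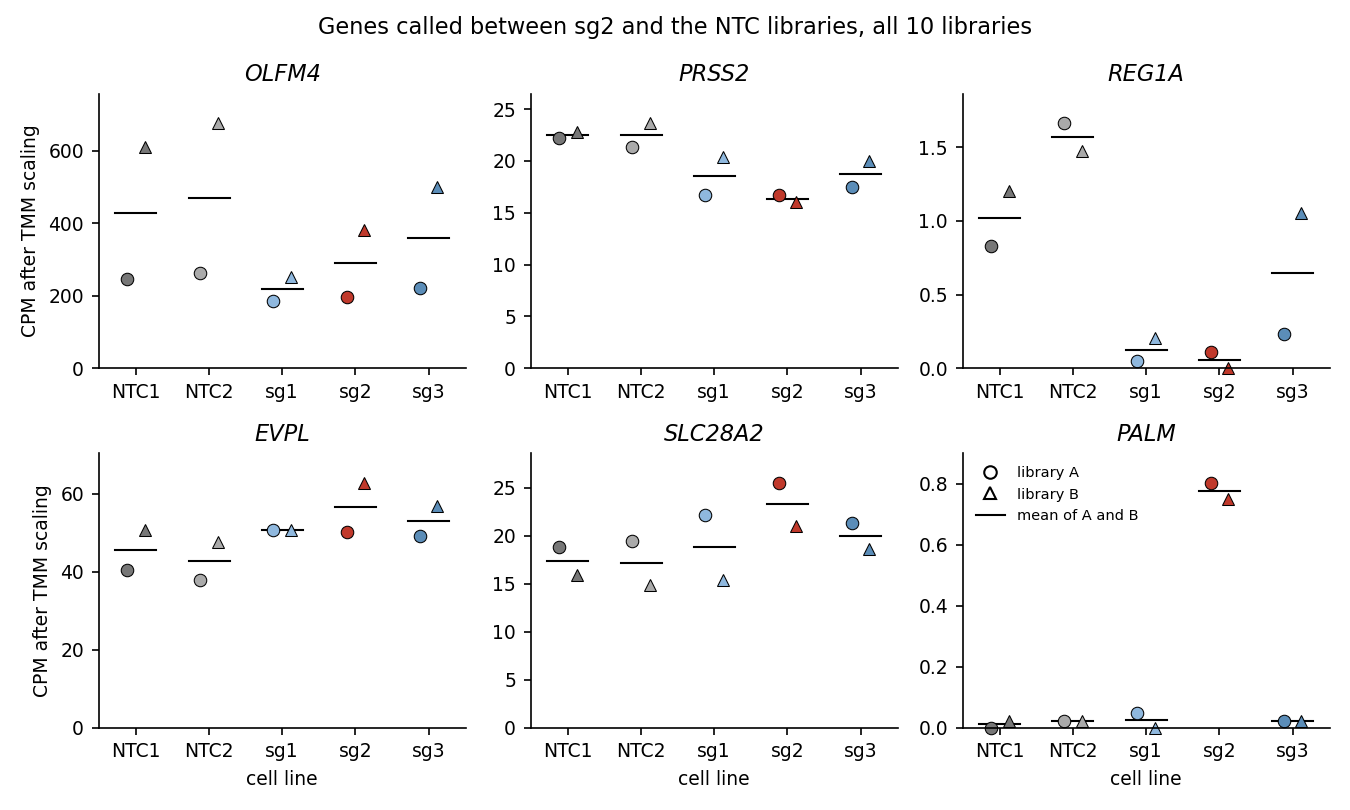
Level in CPM after TMM scaling (y axes, each from 0) of 6 genes called between sg2 and the control libraries, in the 5 lines (x axes), with library A as a circle, library B as a triangle and the line mean as a bar. PALM is highest in the libraries of sg2, while for OLFM4 and EVPL the letters A and B lie as far apart as the lines do.

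The 30 genes that came next by p at 1 CPM or more, 15 higher and 15 lower, are described after their values were seen. Their adjusted p ran from 0.0567 to 0.363, and DESeq2 called 6 of them: IL33, FGFBP1, MALL, DHRS2, TNS4 and ZYX. PIGR, the receptor that carries polymeric antibodies across epithelium, stood at 542 and 757 CPM in sg2 against 381, 519, 478 and 504 CPM in NTC1 A, NTC1 B, NTC2 A and NTC2 B (0.45, SE 0.07, edgeR adjusted p = 0.0567). IL33, a cytokine of barrier cells, stood at 39.5 and 26.8 CPM against 32.4 and 30.1 CPM in the A controls and 20.1 and 16.8 CPM in the B controls (0.43, SE 0.07, edgeR adjusted p = 0.0799, DESeq2 adjusted p = 0.00214). PPL, the plakin that partners envoplakin, stood at 35.2 and 43.1 CPM against 30.7 and 27.0 CPM in A and 35.3 and 34.5 CPM in B (0.29, SE 0.06, edgeR adjusted p = 0.129). For these 3 genes sg2 lay above both controls within each letter. It lay beyond both in all 30, which a choice by p favours, so this adds no support. KIT, the receptor tyrosine kinase, stood at 39.6 and 44.3 CPM against 31.3 to 36.0 CPM, above all controls (0.31, SE 0.06, edgeR adjusted p = 0.212). Genes on the lower side included the mitochondrial ribosomal RNA MT-RNR2 (-0.38, SE 0.07, edgeR adjusted p = 0.0892), the Wnt feedback gene APCDD1 (-0.39, SE 0.09, adjusted p = 0.304), the crypt gene SMOC2 (-0.24, SE 0.05, adjusted p = 0.258) and the secreted phospholipase PLA2G2A (-0.28, SE 0.06, adjusted p = 0.212).

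How far control lines differ from each other gives the scale for these values. In the 10-library fit the contrasts of sg2 with NTC1, of sg2 with NTC2 and of NTC2 with NTC1 each set 2 libraries against 2, and they share libraries. Of 16411 genes, 2 were called between sg2 and NTC1 (0.0122%), 3 between sg2 and NTC2 (0.0183%) and 2 between NTC2 and NTC1 (0.0122%). An unadjusted p under 0.05 was reached by 842 (5.13%), 1131 (6.89%) and 832 (5.07%). Over the 9527 genes at 10 CPM or more the SD of the log2 fold change was 0.0716 for sg2 minus NTC1, 0.0818 for sg2 minus NTC2 and 0.0736 for NTC2 minus NTC1. The fold change exceeded 1.5 in either direction for 4, 5 and 1 of these genes. By the SD sg2 lay about as far from each control line as the control lines lay from each other. By the counts at an unadjusted p under 0.05 it lay farther from NTC2. The order of the adjusted calls depended on the setting. A filter at a mean of at least 5 CPM was chosen after seeing the data. With it 12 genes were called between sg2 and NTC2, 3 between sg2 and NTC1 and 1 between the control lines. Without the replicate block 1 gene was called between sg2 and each control line. In some fits that left out 1 library more genes were called against NTC1 than against NTC2.

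**Figure D3:**
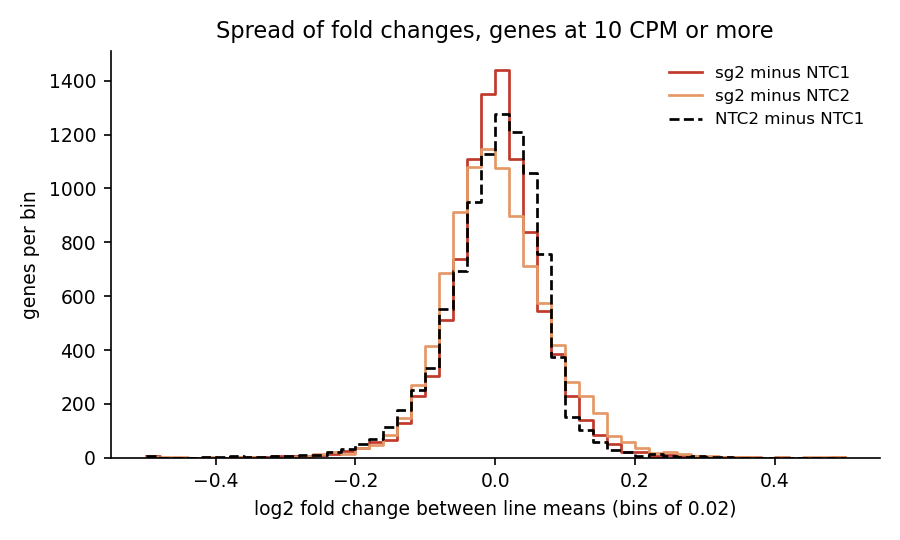
Number of genes (y axis) by log2 fold change between line means in bins of 0.02 (x axis) for 9527 genes at 10 CPM or more, with values beyond 0.5 placed in the outermost bins. The curves for sg2 minus NTC1 (SD 0.0716), sg2 minus NTC2 (SD 0.0818) and NTC2 minus NTC1 (SD 0.0736) overlap over most of their width.

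The genes called in these contrasts, RNASE1 apart, are named after their values were seen. AC000120.3 had 0 counts in both NTC1 libraries, against 1.43 and 1.23 CPM in NTC2 and 1.72 and 1.29 CPM in sg2. By these levels NTC1 stood apart and sg2 did not. AC000120.3 was called between sg2 and NTC1 (edgeR adjusted p = 0.0109) and between NTC2 and NTC1 (adjusted p = 0.0351). It passed the filter on low counts only through lines other than NTC1 and had to differ from NTC1 for that reason. Its adjusted p values are therefore descriptions that support nothing, also where it is counted among the called genes above. Both calls ended without NTC1 A (adjusted p = 0.0973 and 0.0951) or NTC1 B (0.167 and 0.310), and the second also without NTC2 A (0.0759). U2AF1, a splicing factor gene with a near-identical copy that makes its counts uncertain, stood at 7.41 and 10.4 CPM in NTC2 against 13.6 and 25.6 CPM in the other control line and 14.4 and 17.0 CPM in sg2 (NTC2 minus NTC1 -1.12, SE 0.15, edgeR adjusted p = 0.0377). That call ended without NTC1 B (-0.82, adjusted p = 0.485), NTC2 A (-1.12, adjusted p = 0.202) or NTC2 B (-1.12, adjusted p = 0.158).

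PLA2G2A and AC005538.2 separated sg2 from NTC2 without passing against NTC1. PLA2G2A stood at 179 and 252 CPM in sg2, at 229 and 324 CPM in NTC2 and at 195 and 300 CPM in NTC1. It was lower than in NTC2 by -0.35 on the log2 scale (SE 0.05, edgeR adjusted p = 0.0227). The call ended without NTC2 A (-0.33, adjusted p = 0.140), sg2 B (-0.33, adjusted p = 0.233) or sg3 B (-0.35, adjusted p = 0.0639). AC005538.2 stood at 8.85 and 14.2 CPM in sg2, at 4.75 and 6.15 CPM in NTC2 and at 6.89 and 11 CPM in NTC1. It was higher than in NTC2 by 1.06 (SE 0.14, edgeR adjusted p = 0.0231). Its call ended without NTC2 A (1.10, adjusted p = 0.149), NTC2 B (1.03, adjusted p = 0.136), sg2 B (0.89, adjusted p = 0.244), sg3 A (1.06, adjusted p = 0.0607) or sg3 B (1.06, adjusted p = 0.0651). For both genes NTC1 lay between sg2 and NTC2.

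Gene lists covered gut cell types, signalling, immunity, stress, metabolism, growth and RNA handling. They were drawn up with earlier results of these data known and are described by counts and medians only. Of 823 listed genes that were tested 3 were called, RNASE1, OLFM4 and REG1A (0.365%, against 0.0499% of all genes tested). RNASE1 is the target of the guide and REG1A passed the filter only through the controls, so this share supports nothing. An unadjusted p under 0.05 was reached by 96 (11.7%, against 5.69%). For 732 of the 823 (88.9%, against 74.5% of all genes tested) the 95% interval excluded changes beyond 1.5-fold. Among the 40 lists with 5 or more tested members the median in sg2 ran from -0.21 to 0.09, against -0.10 to 0.25 for NTC2 minus NTC1, and the median of all tested genes was -0.00267. In 19 of the 40 the median of sg2 lay farther from 0 than that of the control lines.

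Genes of goblet and other secretory cells, which make intestinal mucus, leaned to lower values in sg2. Of 29 tested members 0 were called by edgeR (0.0499% of all genes tested) and 0 by DESeq2 (0.0998%). At an unadjusted p under 0.05, 13 were lower (44.8%, against 2.52% of all genes tested) and 0 higher. The median log2 fold change was -0.14, with 26 members negative and 3 positive, while NTC2 minus NTC1 gave 0.06. In 16 members sg2 lay below both controls within each letter, as it did in 11.6% of all genes. MUC5AC, a gel-forming mucin of the stomach that colorectal cancers can express, stood at 67.9 and 60.8 CPM in sg2 against 95, 89.5, 76.2 and 90.5 CPM in NTC1 A, NTC1 B, NTC2 A and NTC2 B, below all 4 (-0.45, SE 0.08, edgeR adjusted p = 0.0812). MUC2, the main mucin of the colon, stood at 73.3 and 97.8 CPM against 82.4 and 85.3 CPM in the A controls and 121 and 149 CPM in the B controls (-0.33, SE 0.08, edgeR adjusted p = 0.315). SPINK4, a protease inhibitor of goblet cells, stood at 25.2 and 23.6 CPM against 27.0 to 32.4 CPM (-0.32, SE 0.07, edgeR adjusted p = 0.263).

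The members of that list with the most counts had smaller values. AGR2, a disulfide isomerase for mucin folding, stood at 566 and 562 CPM against 576 to 662 CPM (-0.11, SE 0.05), and the mucin MUC6 at 258 and 274 CPM against 266 to 322 CPM (-0.13, SE 0.04). The transcription factors ATOH1 and SPDEF had values of -0.14 (SE 0.06) and -0.18 (SE 0.09). The list median was -0.07 with A libraries alone and -0.21 with B libraries alone, and stayed negative under 17 of 17 alternatives (-0.21 to -0.07). Many of these genes also differ by letter. For MUC2 the difference of B minus A was 0.65 on the log2 scale.

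Genes of focal adhesions, the contacts that tie integrins to actin, leaned the other way. Of 21 tested members 0 were called by edgeR (0.0499% of all genes tested). DESeq2 called 2 higher, TNS4 and ZYX (0.0686% of all genes tested). At an unadjusted p under 0.05, 10 were higher (47.6%, against 3.17% of all genes) and 0 lower. The median was 0.09, with 17 positive and 4 negative, and NTC2 minus NTC1 gave 0.00. In 11 members sg2 lay above both controls within each letter, as it did in 12% of all genes. The tensins link integrins to actin filaments. TNS2 stood at 19.4 and 18.3 CPM in sg2 against 14.6 to 15.4 CPM in the controls, with no overlap (0.34, SE 0.06, edgeR adjusted p = 0.129). TNS4 stood at 733 and 686 CPM against 653 and 665 CPM in A and 593 and 550 CPM in B, again without overlap (0.21, SE 0.04, edgeR adjusted p = 0.235, DESeq2 adjusted p = 0.000808).

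ZYX, which encodes the adhesion scaffold zyxin, stood at 203 and 205 CPM in sg2 against 178 to 185 CPM (0.17, SE 0.04, edgeR adjusted p = 0.268, DESeq2 adjusted p = 0.0181). The integrin subunit ITGB1 (-0.02, SE 0.04) and the kinases PTK2 (0.01, SE 0.04) and ILK (-0.03, SE 0.04) lay near 0. The list median ran from 0.06 to 0.10 under the 17 alternatives. The values of TNS4 and ZYX in the other guide lines, fitted with all 10 libraries, were 0.18 and 0.10 in sg1 and 0.23 and 0.18 in sg3, on shared controls.

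**Figure D4:**
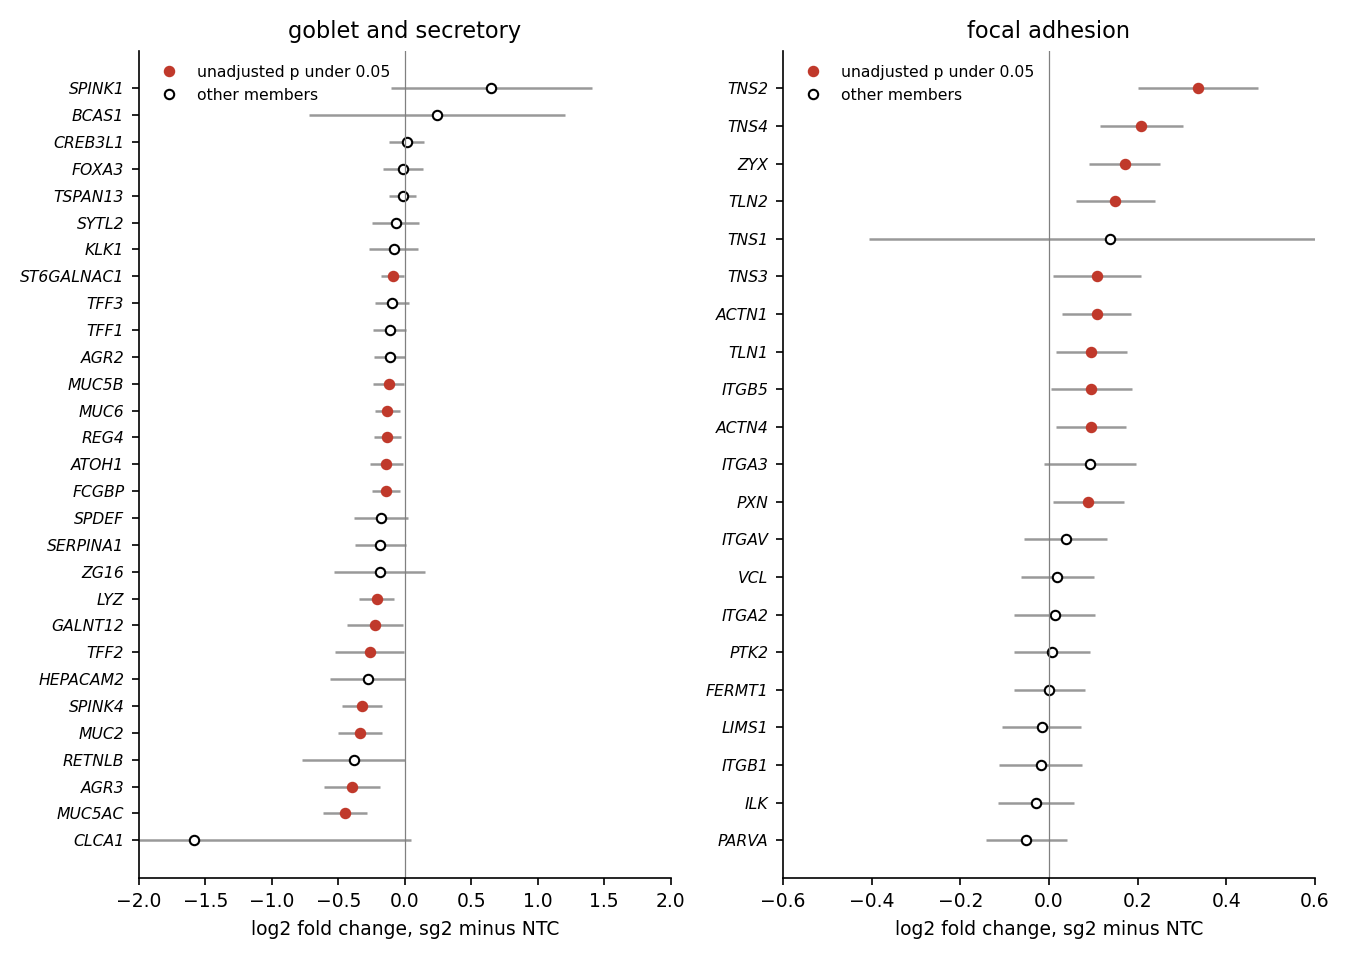
Log2 fold change of sg2 minus the 4 control libraries with its 95% interval (x axes, different scales) for the 29 tested goblet and secretory genes and the 21 tested focal adhesion genes (y axes); filled points have an unadjusted p under 0.05. The intervals of CLCA1 and TNS1 run past the axes, 26 goblet and secretory values are negative, and 17 focal adhesion values are positive.

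Secreted defence genes were mixed. Of 11 tested, 1 was called lower (REG1A, against 0.025% of all genes tested). As given above, that gene passed the filter on low counts only through the controls, so its call supports nothing. At an unadjusted p under 0.05, 2 were higher (18.2%, against 3.17%) and 5 lower (45.5%, against 2.52%). The median was -0.13, and NTC2 minus NTC1 gave 0.13. The higher members were PIGR and the siderophore-binding protein LCN2 (0.22, SE 0.08, edgeR adjusted p = 0.757). Among the lower ones, LYZ had -0.21 (SE 0.06, adjusted p = 0.544) and the lectin REG4 -0.13 (SE 0.05, adjusted p = 0.785), and both also belong to the goblet and secretory list.

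Among 14 intestinal stem cell genes OLFM4 was the 1 called (0.0499% of all genes tested were called). At an unadjusted p under 0.05, 3 were lower (21.4%, against 2.52% of all genes tested), OLFM4, SMOC2 and LGR5. In the same list 1 was higher (7.14%, against 3.17%). The list median was -0.01, and NTC2 minus NTC1 gave -0.00. LGR5, a receptor of the Wnt pathway that marks crypt stem cells, had -0.11 (SE 0.05, edgeR adjusted p = 0.853). ASCL2, their transcription factor, had -0.02 (SE 0.04). For 25 Wnt targets the median was 0.01 with 0 called. At that level 3 were lower (12%, against 2.52%), APCDD1, PROX1 (-0.34, SE 0.09) and BMP4 (-0.18, SE 0.05). Opposite in sign, 1 was higher (4%, against 3.17%), DKK1 (0.34, SE 0.11). Enterocyte genes had a median of 0.06 over 13 tested, 0 called and 11 positive. At an unadjusted p under 0.05, 3 of these were higher (23.1%, against 3.17%) and 0 lower. Carbonic anhydrase CA2 was the largest at 0.50 (SE 0.17, adjusted p = 0.724).

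Innate immune genes showed no call (0.0499% of all genes tested were called). The 37 tested interferon-stimulated genes had a median of 0.03, the 18 sensors of RNA and DNA one of 0.02, and the 21 antigen presentation genes one of 0.01. At an unadjusted p under 0.05 the interferon-stimulated list had 3 higher (8.11%, against 3.17% of all genes tested), BST2 (0.57, SE 0.18), STAT2 (0.17, SE 0.06) and OAS3 (0.12, SE 0.05). It had 1 lower (2.70%, against 2.52%), IFI6 (-0.39, SE 0.17). For 21 of the 37 (56.8%, against 74.5% of all genes tested) the 95% interval lay within 1.5-fold. Changes in this list are thus less tightly bounded. Among the sensors, which include receptors for RNA, 0 of 18 reached that level in either direction (5.69% of all genes), and for all 18 the 95% interval lay within 1.5-fold, as it did for 91.6% of genes at 1 CPM or more. Genes of RNA decay, the process nearest to the activity of a ribonuclease, had a median of 0.01 over 34 tested, with 0 called. At an unadjusted p under 0.05, 2 were higher (5.88%) and 1 lower (2.94%), near the 3.17% and 2.52% of all genes, and all 34 intervals lay within 1.5-fold.

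Metabolic, stress and growth lists had no call. At the 0.0499% called over all genes tested, lists of this size would seldom hold a call. Cholesterol and fatty acid synthesis had 26 of 30 genes positive, a median of 0.06 and 0 called, and NTC2 minus NTC1 gave 0.03. At an unadjusted p under 0.05, 7 of these genes were higher (23.3%, against 3.17% of all genes tested). The desaturase SCD stood at 1013 and 1261 CPM in sg2 against 827 to 1033 CPM (0.31, SE 0.09, edgeR adjusted p = 0.502). The list median was -0.00 with A libraries alone and 0.12 with B libraries alone, so the lean was seen with the B libraries. The list of 28 oxidative stress genes had a median of -0.04 with 0 called, and NTC2 minus NTC1 gave 0.05. Within it the aldo-keto reductases AKR1C1 (-0.40, SE 0.10) and AKR1C2 (-0.44, SE 0.13), close relatives with divided reads, were lower. SOD3, the extracellular superoxide dismutase, was higher (0.24, SE 0.06, edgeR adjusted p = 0.390). Each of these named genes had an unadjusted p under 0.05. Medians were 0.00 over 30 S phase genes, 0.02 over 30 G2 and M phase genes, -0.01 over 30 p53 targets and -0.01 over 30 genes induced by unfolded proteins or the integrated stress response, with 0 called in each.

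For the mitochondrial genome and ribosomal proteins the median of sg2 lay farther from 0 against NTC2 than against NTC1. The 13 mitochondrial mRNAs had a median of -0.08 in sg2, with 12 negative and 0 called (0.0499% of all genes tested). The median was -0.20 with A libraries alone and 0.04 with B libraries alone. NTC2 minus NTC1 gave 0.25, sg2 minus NTC1 0.04 and sg2 minus NTC2 -0.20. Their summed level was 9020 and 10657 CPM in sg2 A and B. It was 9212 and 9925 CPM in NTC1, but 11575 and 11132 CPM in NTC2, which sets NTC2 above both other lines within each letter. Of 84 genes for ribosomal proteins 71 were negative, at a median of -0.03. That median was -0.08 with A libraries alone and 0.01 with B libraries alone, so the lean was seen with the A libraries. Here sg2 minus NTC1 gave -0.01, sg2 minus NTC2 -0.06 and NTC2 minus NTC1 0.06, so sg2 lay as far from NTC2 as the control lines lay apart.

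**Figure D5:**
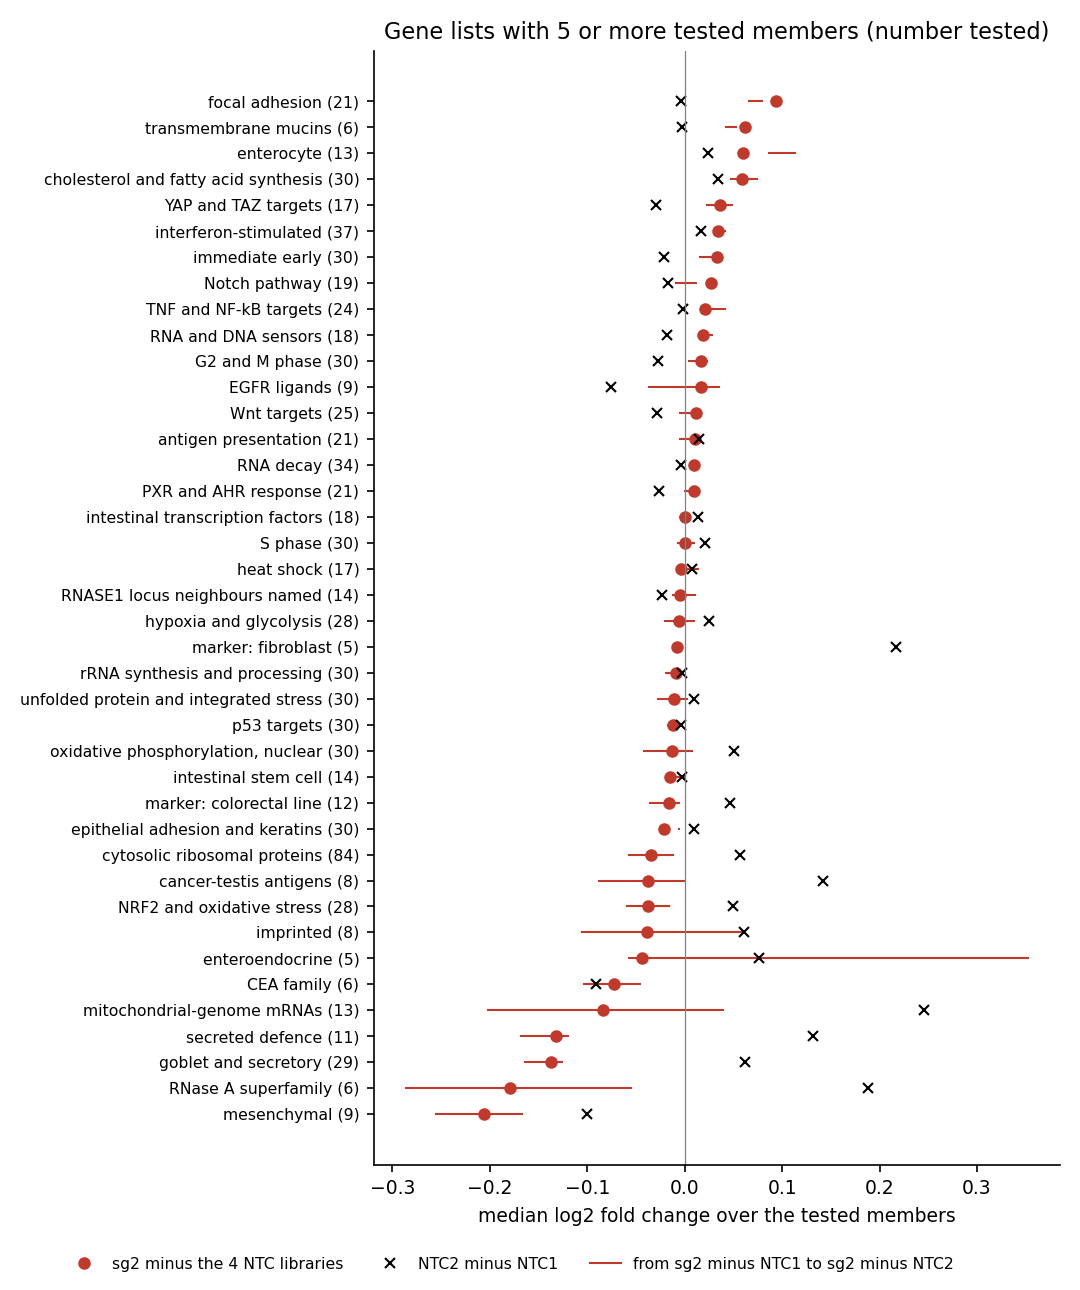
Median log2 fold change (x axis) over the tested members of 40 gene lists (y axis, number tested in parentheses), with sg2 minus the 4 control libraries as a red point, the range from sg2 minus NTC1 to sg2 minus NTC2 as a red line and NTC2 minus NTC1 as a cross. Points come from the 6-library fit, lines and crosses from the 10-library fit, so points and crosses are not of equal precision. The medians of sg2 span -0.21 to 0.09 and the crosses -0.10 to 0.25.

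Few genes separated sg2 from the other guide lines. RNASE1, whose level chose the line, is left out of these counts. Of the 16410 other genes 2 were called between sg2 and sg1 (0.0122%) and 5 between sg2 and sg3 (0.0305%). H19, an imprinted noncoding RNA, stood at 405 and 461 CPM in sg2, against 509 and 602 CPM in sg1 and 503 and 579 CPM in sg3. The controls ran from 354 to 540 CPM, so sg2 lay among them. H19 was lower in sg2 than in sg1 by -0.36 on the log2 scale (SE 0.05, edgeR adjusted p = 0.0140) and than in sg3 by -0.32 (SE 0.05, adjusted p = 0.0468). CTAG2, a cancer-testis antigen gene, was called against sg3 and not against sg1. It stood at 7.33 and 6.17 CPM in sg2 and 6.10 to 7.86 CPM in the controls against 11.4 and 10.0 CPM in sg3 (sg2 minus sg3 -0.66, SE 0.10, edgeR adjusted p = 0.0468).

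PLA2G2A was lower in sg2 than in sg3 by -0.30 (SE 0.05, edgeR adjusted p = 0.0468), while sg1, at 182 and 254 CPM, was level with sg2. Transcripts with more GC than others leaned lower in sg2 against both other guide lines. Over 9527 genes at 10 CPM or more, which are not independent replicates, Spearman's rho between GC content and the fold change was -0.36 for sg2 minus sg1 and -0.37 for sg2 minus sg3. It was 0.54 for sg1 and 0.50 for sg3 against the control mean and 0.17 for sg2 against it. The part of GC content in the differences between guide lines was not tested. The calls of H19 ended without sg2 B (-0.32, adjusted p = 0.150) or sg3 B (-0.36, adjusted p = 0.0576) against sg1, and without 6 of the 10 libraries against sg3 (-0.36 to -0.27).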

How the data were processed

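Polyadenylated RNA of 10 libraries was sequenced, and the authors deposited expected counts for 58870 genes, estimated with RSEM per the name of their table. Per the submitters' processing notes the build was hg38 and the tools included CASAVA 1.8.2, TopHat2 2.0.8 and FastQC 0.11.2. What each tool did, and which annotation was counted, is not given in the sources used here. Per the labels' protocols cDNA was primed at random without marking strand, so overlapping genes on opposite strands cannot be told apart, and reads shared by gene copies were divided. Values were rounded to whole numbers (7.12% were not whole). Gene names and positions came from GENCODE 29 on GRCh38, which matched 58597 identifiers, and the promoter sequence from RefSeq.

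The comparison of sg2 with the 4 NTC libraries used edgeR 4.0.16 (R 4.3.3) on 6 libraries, with TMM scaling, filterByExpr, the quasi-likelihood test (two-sided) and the letter as a block, so the spread between NTC1 and NTC2 is part of the error. Line contrasts came from 1 fit of all 10 libraries. P-values were adjusted by Benjamini-Hochberg across every gene in the fit and read at 0.05. Standard errors were derived from the F statistic. The calling script was run on simulated counts with known changes in sg2. NTC1 and NTC2 were drawn there from the same means, so differences between separately made lines were not covered. Alternatives covered the block, DESeq2 1.42.0, other size factors, filters, letters, control lines, single libraries and GC content.

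The letters pair the libraries. Deviations of same-lettered libraries from their line means were correlated in 10 of 10 pairs of lines (r from 0.483 to 0.779, 9527 genes at 10 CPM or more). Libraries A and B of a line differed by more than counting noise (chi-square per gene 14.3 in sg2 and 20.2 and 20.1 in the controls), so they are not copies of 1 library. This does not show separate cultures, since preparation or batch could also add such a spread. Counting intervals and floors cover counting error only.

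The comparison, the gene lists and the tests were chosen with earlier results of these data known. The rule for named genes took RNASE1, then up to 12 protein-coding genes per direction that were called at 1 CPM or more with sg2 beyond both NTC libraries within each letter. It also took called list members, the 2 list members with the highest mean CPM, up to 3 genes per direction for each contrast with another guide line, and tested genes within 100 kb of RNASE1. Other list members are given as examples chosen after their values were seen.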

Additional observations from a re-analysis of the deposited data

Results flagged for a closer look

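PALM in the 4 control libraries met a test for a stray value. NTC1 A, at 0 counts, lay apart from the other three at 1 count each, and the gap was 0.920 of the group's range in CPM. The test is set to flag about 1 of 20 groups of continuous values, a rate that does not hold for counts of 0 and 1. At these counts the gap is 1 read.

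Several genes differed between sg2 and another guide line in the 10-library fit. H19 was at -0.36 on the log2 scale against sg1 and -0.32 against sg3. CTAG2 was at -0.66 and PLA2G2A at -0.30 against sg3, and both calls ended in 6 of the 10 fits that left out 1 library.

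GAGE1, a cancer-testis antigen gene with many near-identical copies, was at -3.95 against sg1 (SE 0.47, edgeR adjusted p = 0.00815). It stood at 0.492 and 0.0235 CPM in sg2, 4.04 and 3.73 CPM in sg1 and 0.700 to 1.85 CPM in the controls, and the call held in all 10 fits that left out 1 library. SULT1A3, a sulfotransferase gene with a near-identical copy, was at -2.58 against sg3 (SE 0.31, edgeR adjusted p = 0.0224). It stood at 0.737 and 0.634 CPM in sg2, 4.52 and 3.73 CPM in sg3 and 0.503 to 1.73 CPM in the controls. Reads shared among the copies make the counts of both genes uncertain. AC005538.2 was at 0.94 against sg3 (SE 0.14, edgeR adjusted p = 0.0468), with 5.27 and 6.61 CPM in sg3 and 5.80 and 5.71 CPM in sg1. The calls against sg3 ended in 3 such fits for SULT1A3 and 7 for AC005538.2.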

How the results depend on the processing

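RNASE1 stayed between -2.63 and -2.41 on the log2 scale under 17 alternatives and lost its call with A libraries alone (-2.41, adjusted p = 0.0642), a fit of 1 library against 2. The counts of 4 higher and 4 lower genes were less stable. Without the replicate block 1 and 1 genes passed, as in the 10-library fit. DESeq2 gave 11 and 5, no filter on low counts 74 and 93, A libraries alone 0 and 0, B libraries alone 58 and 76, and leaving out line NTC1 24 and 29 or line NTC2 50 and 66. Leaving out 1 library gave 1 to 10 higher and 2 to 12 lower, with the lone library of a line assumed to vary like the others. The cause of these shifts was not tested.

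For the line contrasts (RNASE1 not counted against sg1 and sg3), in alternatives chosen after seeing the data, dropping the replicate block left 1 gene for sg2 against NTC1, 1 against NTC2, 0 against sg1, 0 against sg3 and 0 for NTC2 against NTC1. Without a filter these were 144, 189, 138, 119 and 144. With a mean of at least 5 CPM, 3, 12, 3, 4 and 1 passed. Leaving out 1 library gave 2 to 13, 1 to 28, 1 to 42, 0 to 10 and 1 to 9. Of 40 list medians 11 kept their sign under all alternatives, among them the goblet and secretory, focal adhesion and secreted defence lists.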
